A study of Mus musculus with 10 samples.

Results

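Expression of 9 genes for inhibitory receptors of myeloid cells was followed in microglia, the resident macrophages of the brain, from mice lacking the transcriptional repressors Bhlhe40 and Bhlhe41. The 9 genes, Cd72, Cd300a, Cd300lf, Cd33, Lilrb4a, Sirpa, Siglece, Pilra and Cd200r1, were taken by symbol out of 53697 genes in the files, and they were chosen by their estimated counts in DKO against WT libraries. The difference between genotypes in these 9 genes is therefore given as a description, without a test. All 9 passed the filter on low counts, which left 13916 genes. The samples were 5 libraries of Bhlhe40-/-Bhlhe41-/- double knockout (DKO) microglia, a germline loss of both genes in every cell, and 5 of wild-type (WT) microglia, from untreated female mice on a C57BL/6 background. The WT mice are given as C57BL/6J or Rosa26Stop-YFP, the second with a reporter that is silent without Cre, and elsewhere in the study as littermates, and the strain behind each library is not stated. Minimum ages of 2 and 6 months are stated for the mice of the study, but no source gives the age behind each library. Cells were sorted as viable, CD45.2+ and CD11b+ and as Ly6C-, Ly6G-, MHCII- and CD38-. The labels call each library a biological replicate. Whether a library is 1 mouse is not stated, and the p-values given here thus rest on the spread among libraries, which may in part be technical.

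Inhibitory receptors of this kind carry short tyrosine motifs, called ITIMs, in their intracellular part. Once phosphorylated by Src family kinases, these motifs recruit the phosphatases Ptpn6 (SHP-1), Ptpn11 (SHP-2) or Inpp5d (SHIP1), which dampen signals of activating receptors that work through the adaptors Tyrobp and Fcer1g. Cd200r1 differs in that it has no classical ITIM and signals through the adaptors Dok2 and Dok1, and the motifs of mouse Cd33 differ from those of human CD33. In the brain the ligands of several of these receptors are found on neurons and other cells, as Cd200 for Cd200r1, Cd47 for Sirpa and sialic acid for the Siglecs Cd33 and Siglece.

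The regulatory sequence near the start sites was read first, since Bhlhe40 and Bhlhe41 bind E-boxes and PU.1 is a main activator of myeloid genes. Promoters from 250 bases before to 50 bases after the start came from RefSeq (GRCm38.p6), which held 6 of the 9 genes, without Lilrb4a, Sirpa and Cd200r1. The E-box CACGTG, which reads alike on both strands, was in 0 of the 6, against 7.15% of all 32851 promoters of the table. The core letters of the PU.1 site, GGAAGT on either strand, were in 4 of the 6, against 23.8% of all promoters. The windows of 30 bases around these letters are shown because they include Cd72 and Pilra, the 2 genes whose DKO libraries all lay above all WT libraries. They lie at chr4:43454658-43454687 (Cd72), chr5:137836258-137836287 (Pilra), chr7:43533306-43533335 (Cd33), and chr11:115133989-115134018 and chr11:115133973-115134002 (Cd300lf, overlapping windows). All 4 genes are on the minus strand, each sequence is written 5′ to 3′ along its gene, and capitals mark the PU.1 core, which in Cd72 is on the opposite strand.
Cd72: tgccaaagacctACTTCCtcttttatgact
Pilra: cagatcaataaaGGAAGTtgctggccacaa
Cd33: catgtggaaagtGGAAGTgtttaatcttca
Cd300lf, upstream window: tatatgccagcgGGAAGTggctaaaggagg
Cd300lf, downstream window: gtggctaaaggaGGAAGTgccgagtgagag
The core letters began 49 bases before the start in Cd72, 152 before it in Cd33 and 14 before it in Cd300lf, and at base 4 after it in Pilra and base 3 in Cd300lf. The RefSeq promoter of Cd33 (chr7:43533122-43533421) lies inside the gene span given below (chr7:43524216-43544428), not at its 5′ end. The background is all promoters and not those of myeloid genes, and with 6 promoters nothing is read from either share. A match describes the letters only, and binding was not measured in these samples.

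RNA integrity was not measured. Library totals were 22483284 to 26109349 estimated counts in DKO and 23382114 to 25871082 in WT. Of the targeted genes, Bhlhe40 had 1 to 8 counts per DKO library and 4 to 28 per WT library. Bhlhe41 was still counted, with 997 to 1356 counts in DKO and 754 to 1305 in WT, but its mean transcript length was 1851 to 2719 bases in DKO and 5878 to 6133 bases in WT, with no overlap. Mitochondrial genes took 1.58% of counts in DKO 3, 1.75% in WT 1 and 1.54% in WT 5, and at most 1.16% in the other libraries. Levels below are CPM, counts scaled to library size after TMM adjustment, and fold changes are log2 of DKO over WT with their standard error (SE).

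Cd72 stood apart most clearly. It is a C-type lectin-like receptor known from B cells and also carried by myeloid cells, which binds the semaphorin Sema4d, and it lies at chr4:43446462-43454628 on the minus strand (GRCm38). Its levels were 27.0, 22.8, 21.3, 25.9 and 22.5 CPM in DKO 1 to DKO 5, against 8.14, 6.54, 8.02, 9.13 and 7.19 CPM in WT 1 to WT 5. The lowest DKO library was above the highest WT library by a wide margin, and the means were 23.9 ± 2.45 CPM in DKO and 7.80 ± 0.989 CPM in WT (SD, n = 5 each). The log2 fold change was 1.61 (SE 0.12), a 3.06-fold higher mean. It was 1.64 among the libraries numbered 1 to 3, 1.57 among those numbered 4 and 5, and 1.60 without WT 1 and WT 5.

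Since Cd72 is best known from B cells, the B cell markers were read beside it. Blk and Pax5, which define B cells, had 0 counts in all 10 libraries, an observation that allows up to 3 counts in a library by counting error alone, and Cd79a had 2 to 6 counts in DKO and 0 to 12 in WT. Other genes of the list were well above 0, with Ighm at 622 ± 119 CPM in DKO and 490 ± 105 CPM in WT. The summed B cell list of 14 genes reached 639 to 1020 CPM in DKO and 506 to 818 CPM in WT. Of its 6 tested genes, 0 passed the edgeR test, with 2 at an unadjusted p below the threshold, while DESeq2 and limma voom called 1 each.

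Pilra, the inhibitory partner of the paired immunoglobulin-like type 2 receptors (chr5:137821952-137836281, minus strand), was also separate between genotypes. It had 32.1, 33.5, 30.0, 31.2 and 32.3 CPM in DKO, against 19.9, 20.5, 20.5, 28.3 and 16.4 CPM in WT. The DKO libraries were close together, and WT 4 came within a few CPM of the lowest of them. This gave a log2 fold change of 0.59 (SE 0.13), and 0.46 without WT 1 and WT 5. Zcwpw1, with 176 to 292 counts per library, overlaps Pilra on the other strand, and these libraries do not keep strand.

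Sirpa is the receptor for the "do not eat me" signal Cd47 and lies at chr2:129592835-129632228 on the plus strand. It was at 2644, 2992, 1904, 2069 and 2460 CPM in DKO, against 1558, 2008, 1903, 1720 and 1533 CPM in WT. Most DKO libraries were high, but DKO 3 lay below WT 2, so the genotypes overlapped. The log2 fold change was 0.47 (SE 0.13), with means of 2414 ± 438 CPM in DKO and 1744 ± 209 CPM in WT, and it was 0.36 without WT 1 and WT 5.

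A group of 3 genes was lower in every DKO library than in any WT library. Cd200r1, the receptor of Cd200 (chr16:44765736-44794978, plus strand), had 23.4, 21.0, 22.0, 28.9 and 24.6 CPM in DKO, against 48.0, 35.5, 30.9, 41.7 and 43.5 CPM in WT. DKO 4 was nearest to the lowest WT library, WT 3. The log2 fold change was -0.73 (SE 0.14), or a 1.66-fold higher mean in WT. WT 1 and WT 5 were the highest libraries, and without both of them Cd200r1 was no longer past the edgeR threshold.

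Cd300a, an inhibitory CD300 receptor that binds phosphatidylserine and phosphatidylethanolamine on dying cells (chr11:114890041-114904654, plus strand), had 371, 317, 346, 405 and 376 CPM in DKO, against 592, 495, 477, 513 and 707 CPM in WT. The 2 highest values were those of WT 5 and WT 1, the WT libraries with most mitochondrial counts. Its log2 fold change was -0.62 (SE 0.12), and -0.45 without both of them.

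Siglece, a sialic acid receptor regarded as a counterpart of human SIGLEC9 (chr7:43651070-43660161, minus strand), had 125, 123, 120, 136 and 122 CPM in DKO, against 141, 170, 161, 171 and 143 CPM in WT. The gap between the highest DKO library, DKO 4, and the lowest WT library, WT 1, was small. This amounted to a log2 fold change of -0.33 (SE 0.08), and -0.42 without WT 1 and WT 5.

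In the remaining 3 genes the genotypes overlapped. Cd33, the Siglec whose human counterpart is linked to Alzheimer's disease risk (chr7:43524216-43544428, minus strand), had 689, 624, 713, 593 and 600 CPM in DKO, against 670, 639, 605, 494 and 618 CPM in WT. Its log2 fold change of 0.09 (SE 0.10) was smaller than its SE, and its sign turned under upper-quartile scaling (-0.01) and on the log2 TPM scale (-0.28). Cd300lf, a lipid-binding CD300 receptor (chr11:115116214-115133992, minus strand), had 1.79, 2.28, 2.15, 1.92 and 1.57 CPM in DKO, against 3.03, 2.29, 1.66, 2.63 and 2.67 CPM in WT, and a log2 fold change of -0.34 (SE 0.20). Its values rest on 37 to 51 counts per DKO library and 42 to 84 per WT library.

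Lilrb4a, an inhibitory leukocyte immunoglobulin-like receptor (chr10:51490956-51496611, plus strand), was the most variable of the 9. It had 4.36, 3.57, 2.49, 3.26 and 1.06 CPM in DKO, against 3.21, 1.06, 0.75, 0.53 and 1.47 CPM in WT. WT 1 lay above DKO 3 and DKO 5, and DKO 5 was as low as WT 2. The log2 fold change of 1.06 (SE 0.49) became 1.91 without WT 1 and WT 5. The counts were 25 to 102 in DKO and 13 to 89 in WT, and Gm49339, a coding gene that overlaps it on the same strand, had 7 to 73 counts in DKO and 2 to 32 in WT, so reads may have been split between them.

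The mean length of the Lilrb4a transcripts was 1569 to 3244 bases in DKO and 2204 to 3762 bases in WT. Its longest protein-coding transcript in GENCODE M21 has 1381 bases, less than the mean length in all 10 libraries. If the estimate used these transcripts, it gave weight to longer ones that are not annotated as coding. The annotation behind the gene values is not stated. For Cd72 the mean length was 1486 to 1518 bases in DKO and 1443 to 1607 bases in WT, within the range of its coding transcripts.

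**Figure D1:**
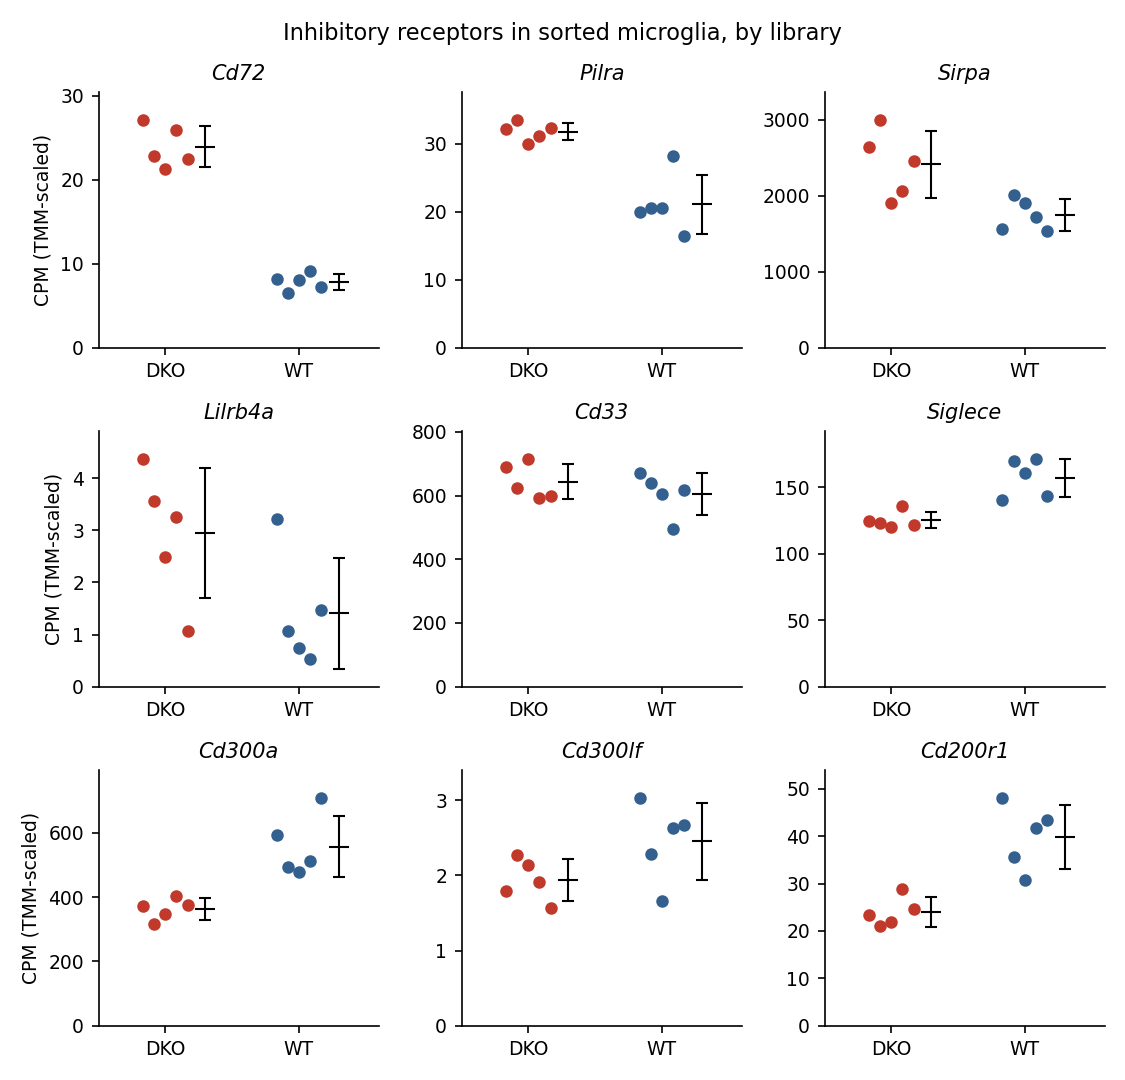
CPM (TMM-scaled, linear axes from 0) of the 9 receptor genes in each library, DKO left and WT right in each panel, with the mean and SD of 5 libraries beside the points. The DKO libraries of Cd72 lie between 21.3 and 27.0 CPM, above all WT libraries, those of Cd200r1, Cd300a and Siglece lie below all WT libraries, and those of Sirpa, Lilrb4a, Cd33 and Cd300lf overlap with WT.

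In sum over the 9 genes, 5 were among the genes past the adjusted p threshold of edgeR's quasi-likelihood test, Cd72 and Pilra higher in DKO and Cd200r1, Cd300a and Siglece lower, where 6.19% of all tested genes were called (4.34% higher, 1.85% lower). When 1 library was left out, 3 to 5 of the 9 were called. They were 3, Cd72, Cd300a and Cd200r1, without DKO 1, DKO 2, DKO 5, WT 2 or WT 5. Other subsets gave other genes, Cd72 and Pilra with numbers 1 to 3 only, and Cd72, Cd300a and Siglece without WT 1 and WT 5. None was called with numbers 4 and 5 only. Sirpa was called with DESeq2, and in place of Siglece without DKO 3 or WT 3. The 5 called by edgeR with all libraries were also those without overlap between genotypes, where 7.62% of all tested genes had none (4.33% with every DKO library above, 3.29% with every DKO library below). The genes called were 862 in all, and 402 to 1618 when 1 library was left out, fewest without DKO 1 and most without WT 3. Because this contrast was known when the genes were chosen, nothing is read from these counts. In bulk RNA, fewer cells carrying a transcript and less transcript per cell cannot be told apart.

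The receptors covered a wide range of levels, which can be compared between genes only per length. On the scale of CPM per kilobase of effective length, Sirpa led in both genotypes with 967 ± 148 in DKO and 719 ± 73.9 in WT. Cd33 followed with 284 ± 19.5 in DKO and 271 ± 30.0 in WT, and both ranks were apart from their neighbours over all libraries. In DKO the order went on with Siglece (92.7), Cd300a (84.5), Pilra (39.9), Cd72 (21.6), Cd200r1 (10.8), Lilrb4a (1.38) and Cd300lf (1.20 CPM per kilobase). Siglece and Cd300a overlapped there, as did Lilrb4a and Cd300lf.

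In WT the order was Cd300a (130), Siglece (119), Pilra (28.0), Cd200r1 (18.1), Cd72 (7.17), Cd300lf (1.55) and Lilrb4a (0.392 CPM per kilobase), with Cd300a and Siglece overlapping, as did Pilra and Cd200r1. Thus Cd72 stood above Cd200r1 in DKO and below it in WT, and in both genotypes the libraries of these 2 genes did not overlap. Of the summed level of the 9 genes, Sirpa took 64.0% ± 4.38 in DKO and 55.5% ± 3.60 in WT. Cd300a took 5.67% ± 0.783 in DKO and 10.1% ± 2.24 in WT.

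**Figure D2:**
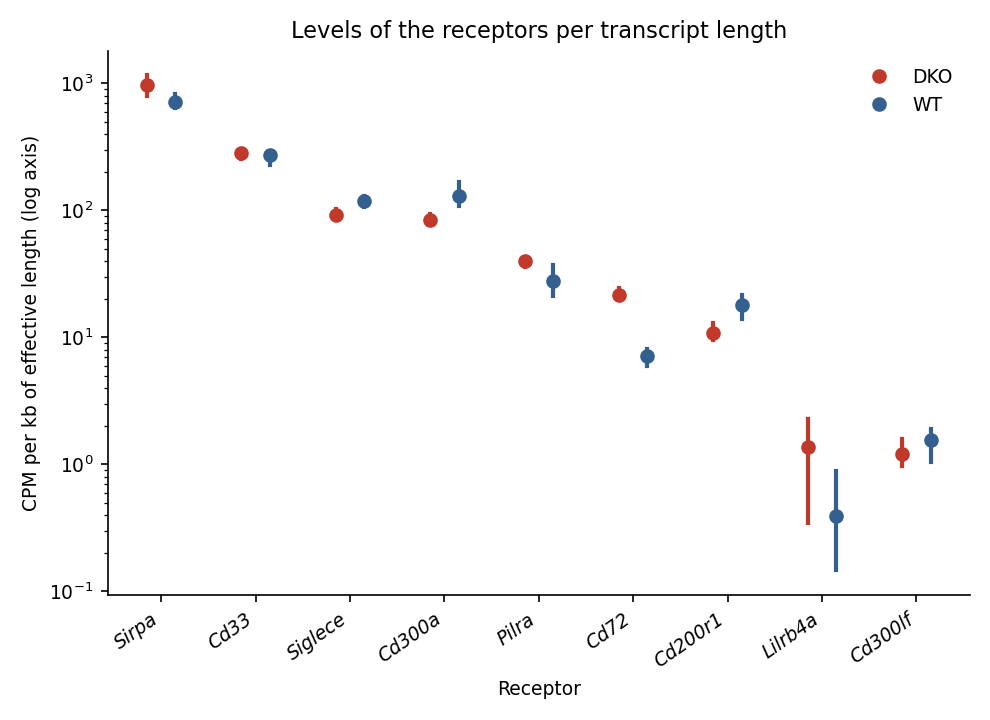
Levels of the 9 receptor genes in CPM per kilobase of effective length (log axis), DKO left of WT for each gene, with points for the mean and lines from the lowest to the highest of 5 libraries. Sirpa leads in both genotypes, and Cd72 (21.6 in DKO, 7.17 in WT) and Cd200r1 (10.8 in DKO, 18.1 in WT) change places.

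Genes whose libraries followed the same pattern were looked up for the receptors with the highest and the lowest log2 fold change, Cd72 and Cd200r1, by the root mean square difference of log2 CPM centred on the 10 libraries, among 7981 genes of at least moderate level. Nearest to Cd72 were Calhm6, which encodes a calcium homeostasis modulator channel (difference 0.226, 57.0 ± 3.94 CPM in DKO and 21.8 ± 2.95 in WT), and Ermap, an erythroid membrane protein of the butyrophilin family (0.236, 32.3 ± 2.99 CPM in DKO and 12.6 ± 1.48 in WT). The median gene differed from Cd72 by 0.858. Nearest to Cd200r1 were Prpsap2 (0.119, 71.3 ± 7.96 CPM in DKO and 106 ± 9.53 in WT) and Acvr1, an activin receptor (0.136, 15.1 ± 2.00 CPM in DKO and 22.7 ± 2.61 in WT). The third in this order was Cd300a itself (0.139), where the median gene differed from Cd200r1 by 0.449. The centring keeps the difference between genotypes, by which the receptors were chosen, so a near gene is largely one of like fold change. The log2 fold changes were -0.57 for Prpsap2, -0.59 for Acvr1 and -0.62 for Cd300a. That Cd300a is near Cd200r1 is therefore not a separate result.

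Genes around the receptors were not used in choosing them and were tested. The lists of such genes were drawn up with earlier results of these data known, and some genes stand in several lists. The shares called are therefore descriptions. The Cd300 genes lie on chromosome 11, all but the untested Cd300lg in a row with Cd300a and Cd300lf at either end, and most genes between them pair with activating adaptors. Cd300lb, an activating receptor 18127 bases from Cd300a, had 12.4, 10.9, 9.61, 12.1 and 12.5 CPM in DKO, against 1.77, 2.29, 1.58, 2.67 and 3.95 CPM in WT. Every DKO library was above every WT library, and its log2 fold change was 2.23 (SE 0.24, adjusted p = 0.000241 in edgeR). Cd300c2 had 624, 623, 605, 712 and 698 CPM in DKO, against 473, 432, 424, 524 and 503 CPM in WT.

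Cd300c2 therefore rose as well (0.47, SE 0.09, adjusted p = 0.0104), though not past the threshold under upper-quartile scaling or on the log2 TPM scale (adjusted p up to 0.435 over all settings). Cd300ld rose at a low level, with 1.75 ± 0.579 CPM in DKO and 0.637 ± 0.187 CPM in WT (1.45, SE 0.30, adjusted p = 0.0165). Its call was lost with numbers 1 to 3 only, with numbers 4 and 5 only, and with the replicate number as a block in edgeR (adjusted p up to 0.202 over all settings). Cd300ld3 rose near the detection limit, with 15 to 28 counts per DKO library and 0 to 6 per WT library (adjusted p = 0.00536). Cd300c, at 0.733 CPM in DKO and 0.345 CPM in WT, did not pass (1.07, SE 0.40, adjusted p = 0.135). Of the 10 Cd300 genes other than Cd300a and Cd300lf, 5 had enough counts for the test, and 4 of them rose, where 4.34% of all tested genes did, while Cd300a at the edge of the row was lower in DKO. These genes are close relatives, and reads may be shared among Cd300ld, Cd300ld3 and their untested neighbours. Cd300ld3 passed the count filter through its DKO libraries alone, so it could be called only as higher.

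Among the other Siglec genes, Siglecg and Siglecf fell. Siglecg, an inhibitory Siglec of B cells that lies 105858 bases from Cd33, fell to 1.41, 1.47, 2.49, 1.63 and 2.17 CPM in DKO, against 3.71, 4.33, 4.43, 7.65 and 7.15 CPM in WT (-1.57, SE 0.26, adjusted p = 0.0054). Siglecf, the inhibitory Siglec best known from eosinophils, also fell, to 37.2 ± 6.09 CPM in DKO, against 54.7 ± 5.47 CPM in WT (-0.56, SE 0.12, adjusted p = 0.0244). Its call was lost when DKO 2, DKO 3, DKO 5, WT 4 or WT 5 was left out, with adjusted p up to 0.222 over all settings. Of the 7 Siglec family genes beside Cd33 and Siglece, 6 were tested, and these 2 passed, where 6.19% of all tested genes did.

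Siglech, the most abundant of the family at 1683 ± 352 CPM in DKO and 1375 ± 351 CPM in WT, did not pass (0.29, SE 0.20, adjusted p = 0.394). Cd22 was variable, at 45.5 ± 23.8 CPM in DKO and 15.1 ± 9.36 CPM in WT, with overlapping libraries (1.59, SE 0.47, adjusted p = 0.0687). It is also a B cell marker, and its level is part of the B cell sum given above.

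**Figure D3:**
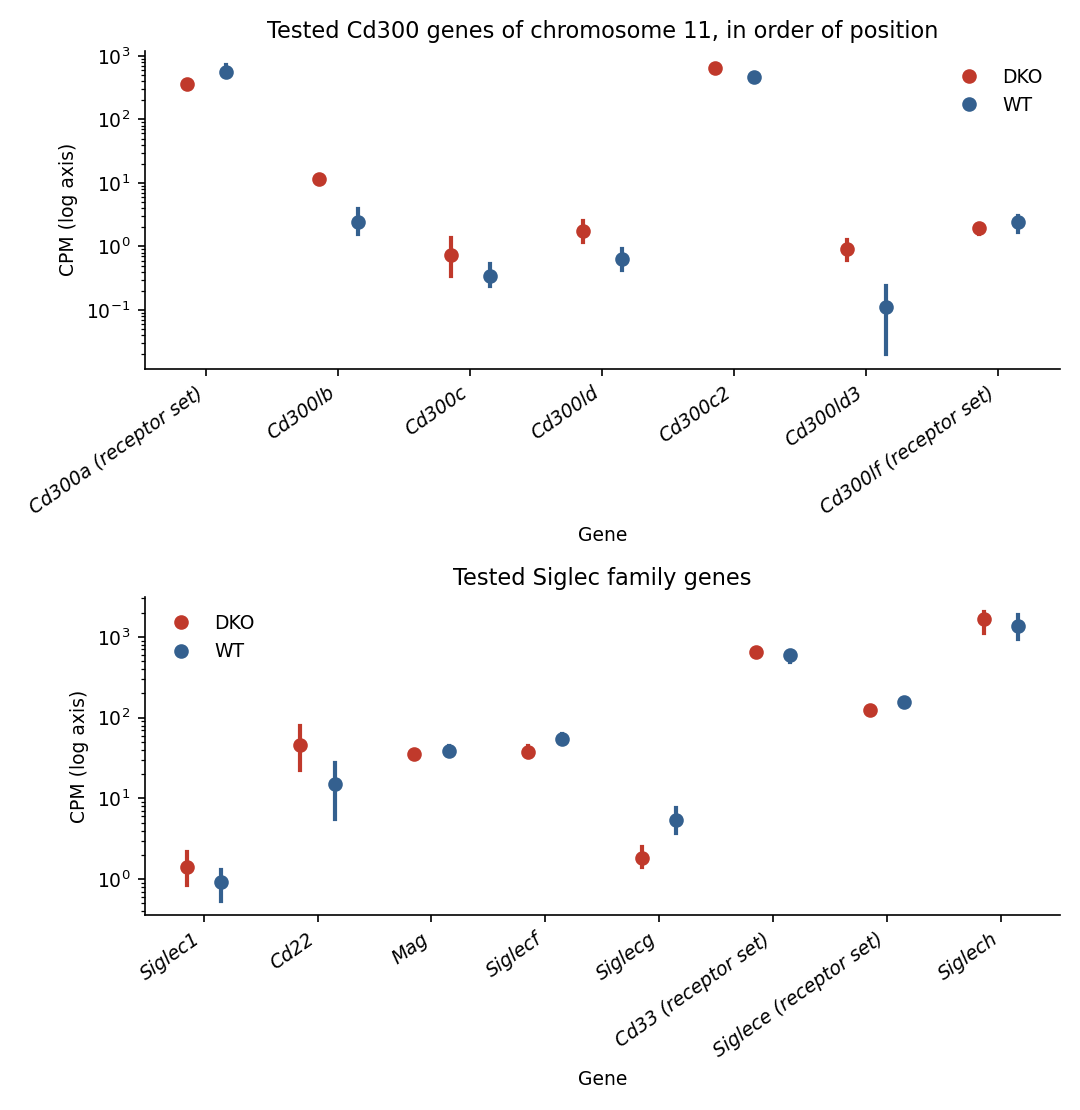
CPM (log axes) of the tested genes of the Cd300 family in their order on chromosome 11 (above) and of the Siglec family (below), DKO left of WT for each gene, with points for the mean and lines from the lowest to the highest of 5 libraries. The lowest WT library of Cd300ld3 is at 0 and its line is drawn to the foot of the axis. Cd300lb (11.5 in DKO, 2.45 in WT), Cd300ld, Cd300c2 and Cd300ld3 are higher in DKO, and Siglecf and Siglecg are lower.

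Over all 9 loci, 65 other tested genes started within 250 kb of a receptor gene, of which 6 rose and 2 fell, or 12.3% against 6.19% of all genes tested. Their median log2 fold change was 0.11, beside -0.01 over all genes tested. Besides the Cd300 genes, among them Cd300ld3 with the limit given above, and the Siglec genes, the neighbours called were Car9 and Ttyh2. Car9, a carbonic anhydrase induced by low oxygen that lies 52338 bases from Cd72, reached 5.42 ± 0.785 CPM in DKO, against 1.07 ± 0.350 CPM in WT (2.33, SE 0.24, adjusted p = 0.000177). Ttyh2, of the tweety family, rose to 21.2 ± 2.33 CPM in DKO, against 13.3 ± 1.12 CPM in WT (0.67, SE 0.11, adjusted p = 0.00536). The share of 12.3% is thus mostly made of Cd300 and Siglec genes already counted with their families, and it is not read as a trait of the loci. The windows of Cd300a and Cd300lf share genes, as do those of Cd33 and Siglece. The loci of Lilrb4a, Sirpa, Pilra and Cd200r1 had 0 neighbours called.

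Further receptors of the same class were then compared. Of 26 other inhibitory receptors, 18 were tested, of which 2 rose and 4 fell, or 33.3% against 6.19% of all genes tested. Their median log2 fold change was -0.16, beside -0.01 over all genes tested. Pecam1, an adhesion molecule with ITIMs, fell to 3.80, 5.40, 4.29, 6.52 and 5.40 CPM in DKO, against 29.7, 46.5, 42.4, 58.0 and 44.2 CPM in WT (-3.12, SE 0.20, adjusted p = 7.7e-06). Every DKO library lay far below every WT library. Fcgr2b, the inhibitory Fc receptor for IgG, fell to 289 ± 14.7 CPM in DKO, against 502 ± 68.4 CPM in WT (-0.80, SE 0.10, adjusted p = 0.00095).

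Siglecg and Siglecf completed the 4 that fell. Fcrl1 rose to 336 ± 26.3 CPM in DKO, against 169 ± 10.7 CPM in WT (0.99, SE 0.08, adjusted p = 4.4e-05), although it is known on B cells as an activating co-receptor and so does not do what the list is named for. Milr1, a mast cell immunoglobulin-like receptor, also rose, with 30.7 CPM in DKO and 17.6 CPM in WT (0.80, SE 0.14, adjusted p = 0.00747). The 2 most abundant of the list did not pass the test. They were Vsir at 3132 CPM in DKO and 3309 CPM in WT (-0.08, adjusted p = 0.522) and Lair1 at 1318 CPM in DKO and 1423 CPM in WT (-0.11, adjusted p = 0.537).

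Among 29 activating counterparts and their adaptors, 14 were tested, of which 4 rose and 1 fell, or 35.7% against 6.19% of all genes tested, with a median log2 fold change of 0.21. The 4 were Cd300lb, Cd300c2, Cd300ld and Lilra5. Lilra5, an activating leukocyte immunoglobulin-like receptor, had 125, 107, 107, 99.1 and 80.9 CPM in DKO, against 66.8, 58.2, 45.0, 35.8 and 30.9 CPM in WT (1.13, SE 0.21, adjusted p = 0.00881). The genotypes did not overlap, and the libraries numbered 5 were lowest in both. Nfam1, a receptor with an activating tyrosine motif, fell slightly, to 494 CPM in DKO, against 619 CPM in WT (-0.32, SE 0.07, adjusted p = 0.0223), and lost its call without DKO 2, DKO 5, WT 2 or WT 5 (adjusted p up to 0.322 over all settings).

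The adaptors of the activating receptors did not pass, with Tyrobp at 2091 CPM in DKO and 1826 CPM in WT (0.20, SE 0.12, adjusted p = 0.343) and Fcer1g at 1390 CPM in DKO and 1196 CPM in WT (0.22, SE 0.09, adjusted p = 0.164). The activating partners of several of the 9 receptors were too low to test. Pilrb1 and Pilrb2, the partners of Pilra, had at most 12 counts per library in DKO and at most 15 in WT, and Sirpb1a, Sirpb1b and Sirpb1c at most 5 in DKO and at most 7 in WT.

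**Figure D4:**
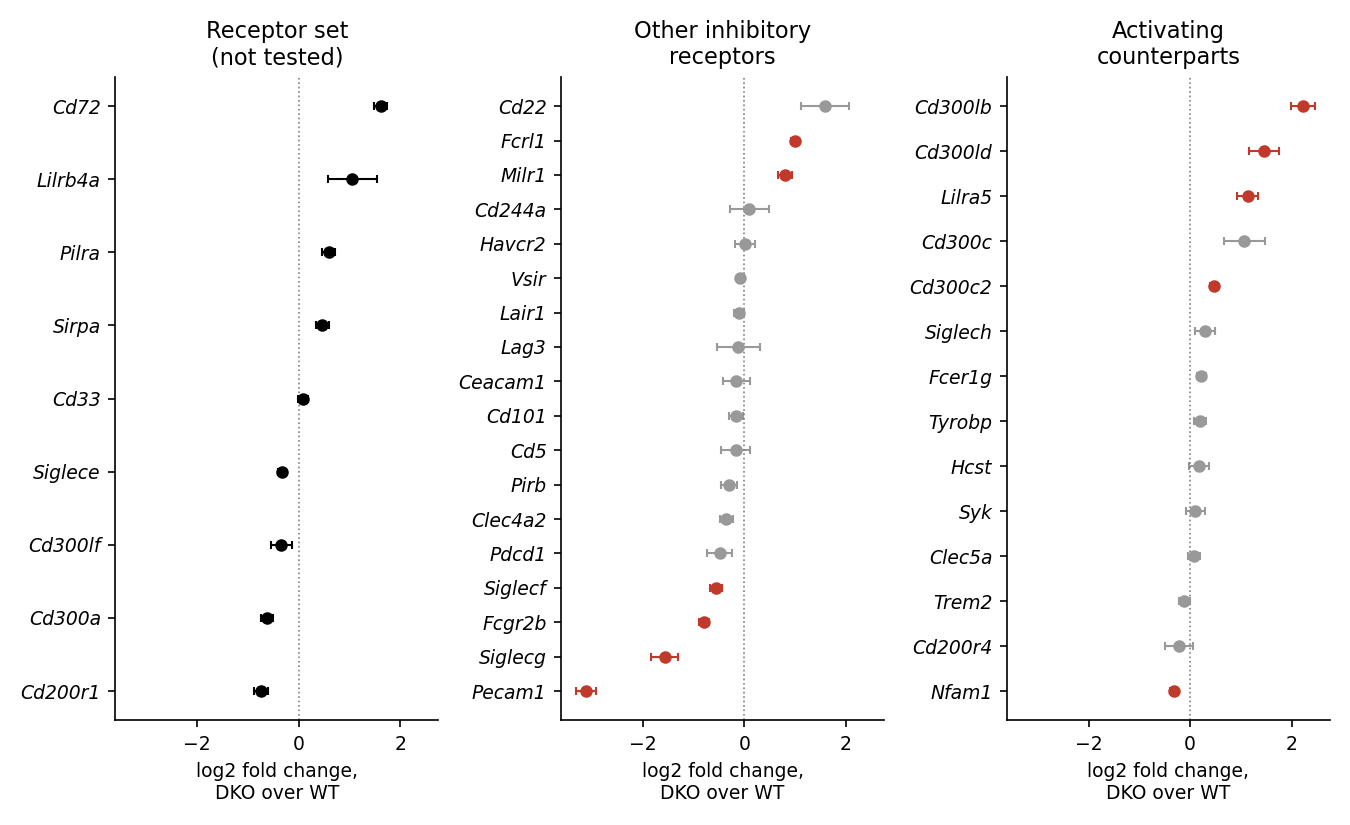
Log2 fold changes of DKO over WT with their SE for the 9 receptor genes (left, described without a test), other inhibitory receptors (middle) and activating counterparts (right). Red points passed an adjusted p of 0.05 and grey points did not. Pecam1 (-3.12) is the lowest and Cd300lb (2.23) the highest point.

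Of 20 genes for signal partners inside the cell, all tested, 2 rose, with a median log2 fold change of 0.14 over the list. That is 10% of the list, near the 6.19% called among all genes tested. Fgr, a Src family kinase, rose to 18.0, 15.6, 16.3, 16.0 and 19.0 CPM in DKO, against 5.73, 10.7, 6.80, 9.58 and 11.1 CPM in WT (0.95, SE 0.18, adjusted p = 0.0127). The 2 genotypes did not overlap. Dok2, the adaptor through which Cd200r1 is known to signal, was low, with 1.67, 2.14, 1.54, 2.49 and 1.91 CPM in DKO, against 0.649, 0.722, 0.158, 0.247 and 1.02 CPM in WT (1.79, SE 0.41, adjusted p = 0.0273). Its call was lost when any of DKO 1, DKO 2, DKO 4, DKO 5, WT 1, WT 2 or WT 4 was left out, with adjusted p up to 0.307 over all settings.

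The phosphatases that the ITIMs recruit did not pass. Ptpn6 was at 699 CPM in DKO and 599 CPM in WT (0.22, SE 0.11, adjusted p = 0.238), Inpp5d at 880 CPM in DKO and 804 CPM in WT (0.13, SE 0.17, adjusted p = 0.671), and Ptpn11 at 12.6 CPM in DKO and 8.25 CPM in WT (0.61, SE 0.39, adjusted p = 0.376). Lyn, the kinase known to phosphorylate such motifs, was at 1067 CPM in DKO and 992 CPM in WT (0.11, SE 0.07, adjusted p = 0.374).

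Ligands of the receptors are mostly made by other cells, and of 12 listed 6 had enough counts in these sorted cells, of which 2 rose, or 33.3% against 6.19% of all genes tested. The list had a median log2 fold change of 0.47. Pianp, a ligand of Pilra known from neurons, had 14 to 54 counts per DKO library and 0 to 2 per WT library (adjusted p = 0.0018), and it was higher in DKO 1 to DKO 3 (1.72 to 2.41 CPM) than in DKO 4 (0.571 CPM) and DKO 5 (0.638 CPM). Pianp passed the count filter through its DKO libraries alone, so it could be called only as higher. Cd99l2, a relative of the Pilra ligand Cd99, was at 53.2 ± 5.14 CPM in DKO and 37.8 ± 5.52 CPM in WT (0.49, SE 0.12, adjusted p = 0.0334). Its call was lost in 14 of 25 settings, among them those without DKO 1, DKO 2, DKO 3, WT 1, WT 4 or WT 5, with adjusted p up to 0.50.

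The ligands of Cd72, Sirpa and Cd200r1 did not pass or had too few counts. Sema4d, which binds Cd72, was at 403 CPM in DKO and 419 CPM in WT (-0.06, SE 0.10, adjusted p = 0.756), and Cd47, the ligand of Sirpa, at 244 CPM in DKO and 178 CPM in WT (0.45, SE 0.27, adjusted p = 0.332). Cd200 had at most 1 count per DKO library and at most 5 per WT library. Neuronal markers, which bear on Pianp, summed to 9.13 to 14.2 CPM in DKO and 8.76 to 10.6 CPM in WT, and their part in its level was not tested.

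The Siglecs bind sialic acid, which cells make, attach and remove with the enzymes of a further list. Of its 19 genes, all tested, 1 rose, or 5.26% against 6.19% of all genes tested, with a median log2 fold change of 0.03. St6galnac6, a sialyltransferase of ganglioside synthesis, was at 9.81 ± 2.21 CPM in DKO and 5.37 ± 0.923 CPM in WT (0.87, SE 0.18, adjusted p = 0.0187), and lost its call without DKO 1 (adjusted p up to 0.264 over all settings). The list had 3 calls without WT 3 and 2 without DKO 2 or WT 5. With DESeq2 the list had 5 calls and with limma voom 4. St3gal5, the synthase of ganglioside GM3, was at 190 CPM in DKO and 63.1 CPM in WT but varied widely (1.59, SE 0.53, adjusted p = 0.101), with WT 3 at 173 CPM.

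The labelled cell type was read from its markers. The 10 microglia markers summed to 79986 to 96977 CPM in DKO and 86411 to 96654 CPM in WT, and 1 of them passed, P2ry12, which fell to 7609 ± 974 CPM in DKO, against 10766 ± 1335 CPM in WT (-0.50, SE 0.12, adjusted p = 0.0301). Monocyte markers summed to 28.2 to 37.3 CPM in DKO and 15.8 to 20.6 CPM in WT, where Cd44 and Ly6a passed, both higher in DKO, out of 6 tested. Plac8 went the other way without passing, at 0.228 CPM in DKO and 0.812 CPM in WT (-1.81, SE 0.64). Ly6c2 had at most 4 counts per library in DKO and at most 1 in WT, and Chil3 had 0 counts in every library. Most of the monocyte sum is Ly6a, at 19.8 CPM in DKO and 11.8 CPM in WT. Of 3 tested markers of border-associated macrophages 1 passed, Pf4, with 49 to 146 counts in DKO and 0 to 10 in WT, in a sum of 7.04 to 27.5 CPM in DKO and 5.18 to 15.8 CPM in WT. Most of that sum is Mrc1, which did not pass, at 11.1 ± 8.65 CPM in DKO and 8.19 ± 4.79 CPM in WT (0.43, SE 0.54). Ms4a7 did not pass either (0.14, SE 0.51). Lyve1, Cd163 and Clec10a had 0 counts in every library, and Cbr2 and F13a1 were too low to test. Like Cd300ld3, Pf4 passed the count filter through its DKO libraries alone and could be called only as higher.

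The sum of T and NK cell markers was 10.1 to 18.5 CPM in DKO and 25.0 to 48.0 CPM in WT, most of it Il7r, which fell to 12.6 ± 3.78 CPM in DKO, against 34.1 ± 8.43 CPM in WT, the 1 of 2 tested that passed. The other, Cd3d, went the other way without passing, at 1.34 CPM in DKO and 0.996 CPM in WT (0.42, SE 0.29). Cd3g, Trbc2, Nkg7 and Ncr1 had 0 counts in every library, so the sum mainly follows Il7r. Dendritic cell markers summed to 9.22 to 14.6 CPM in DKO and 6.51 to 9.51 CPM in WT, with 0 of 4 tested past the edgeR test (1 at an unadjusted p below the threshold, 1 called by DESeq2). Of 5 tested neuronal markers 0 passed in edgeR, DESeq2 or limma voom, with 1 at an unadjusted p below the threshold, and the neutrophil markers summed to at most 1.61 CPM in DKO and at most 0.903 CPM in WT, too low to test. The part of monocytes and border-associated macrophages in the receptor levels was not tested.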

How the data were processed

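RNA of sorted microglia was sequenced in paired ends from an unstranded kit (TruSeq RNA v2). Per the labels, reads went through FastQC 0.11.8 and cutadapt 2.6 and were placed on mm10 by STAR 2.5.3a of the authors. Which tool and annotation gave the gene values is not stated in the sources used here. Each deposited file holds, per gene, estimated counts without normalization, TPM scaled by the authors' tool to a common total, and lengths in bases.

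Estimated counts were rounded and filtered with filterByExpr (minimum count 10), scaled by TMM and tested in edgeR 4.0.16 (R 4.3.3) by the quasi-likelihood functions glmQLFit and glmQLFTest, with genotype as the one term. The Benjamini-Hochberg adjustment ran over all 13916 genes, and 0.05 was the threshold. Coordinates are from GENCODE M21 (GRCm38), which held 98.341% of the gene identifiers. Libraries of the same number did not regularly deviate together (correlations from -0.288 to 0.235), and only those numbered 4 were each other's best match. The numbers are therefore not read as pairs, though these correlations cannot exclude pairing.

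The 9 genes, the lists and the tests were chosen with earlier results of these data known. The text names the 9 genes, from each list of related genes up to 4 past the threshold with the smallest p, from each marker list up to 2 (where none passed, the 2 most abundant), up to 4 locus neighbours past the threshold, and the 2 genes most like the receptor furthest in either direction. The other genes named were chosen after their values were seen, as was the layout of the Cd300 and Siglec families. For marker lists where none passed, Bank1, Itgax, Zbtb46, Camk2a and Snap25 belong to the rule and are counted in their lists only. A search for protein motifs was not done here. Alternatives were other scalings, DESeq2 1.42.0, limma 3.58.1 (voom, or log2 TPM + 1), other filters, a length offset, the replicate number as a block, subsets of libraries and leaving out each library. The edgeR test was tested on simulated data.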

Additional observations from a re-analysis of the deposited data

Results flagged for a closer look

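Of the genes with values in the text, 70 were looked at in each genotype for a library far from the other 4, which makes 140 groups. The measure is the gap to the nearest library as a share of the range, with a critical value of 0.71 (Dixon's test for 5 samples), and chance gives such a gap in about 1 in 20 groups. It was passed in 10 groups, none of them of the 9 receptor genes. St3gal5 was at 173 CPM in WT 3, against 21.8 to 52.1 CPM in the other WT libraries (0.8 of the range), so that WT 3 lay within the DKO range. Vsir was at 3603 CPM in WT 5, against 3181 to 3279 CPM in the other WT libraries (0.767). Fcer1g was at 1313 CPM in DKO 3, against 1392 to 1424 CPM in the other DKO libraries (0.713). Ly6a was at 14.8 CPM in WT 4, against 10.5 to 11.7 CPM in the other WT libraries (0.713). The other 6 groups are of genes with at most 5 counts in any library. Cd200 was highest in DKO 1 (1.0 of the range) and in WT 5 (0.781), and Sirpb1a in DKO 1 and WT 2 and Sirpb1c in DKO 2 and WT 5 were the sole libraries above 0 (1.0 each).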

How the results depend on the processing

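Over 25 alternatives the log2 fold changes of the receptor genes ran between 1.15 and 1.68 for Cd72, -0.95 and -0.45 for Cd300a, -0.61 and -0.17 for Cd300lf, -0.28 and 0.15 for Cd33, 0.58 and 1.91 for Lilrb4a, 0.067 and 0.54 for Sirpa, -0.70 and -0.29 for Siglece, 0.18 and 0.72 for Pilra and -1.02 and -0.59 for Cd200r1. They moved by more than the spread between libraries only on the log2 TPM + 1 scale, to 1.15 for Cd72, -0.95 for Cd300a, -0.28 for Cd33, 0.067 for Sirpa, -0.70 for Siglece, 0.18 for Pilra and -1.02 for Cd200r1. That scale moved the median of all genes to -0.26, and relative to it the values were 1.41, -0.69, -0.02, 0.32, -0.45, 0.43 and -0.76. Upper-quartile factors moved it to -0.11. Of the genes called, 70.1% were higher in DKO, against 54.6% for upper-quartile factors, 53.7% for unscaled library size, 13% on the TPM scale, 59.8% with a term for the numbers 1 to 3, 82.5% with numbers 4 and 5 only. The ranks by TPM were those by CPM per kilobase.

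In place of 862, the genes called were 1629 with DESeq2, 4815 on the TPM scale, 1431 with the term for the numbers, 298 with numbers 1 to 3 only, 57 with numbers 4 and 5 only, 449 without WT 1 and WT 5, and 402 to 1618 leaving out 1 library. Signal partners had 9 calls on the TPM scale, 0 with numbers 1 to 3 or 4 and 5 only, and 1 to 2 leaving out 1 library. Ligands had 1 with upper-quartile factors, unscaled library size, TPM, a CPM of at least 1, the length offset, numbers 1 to 3, or without WT 1 and WT 5, 0 with numbers 4 and 5, and 1 to 2 leaving out 1 library. The sialic acid list had 5 with DESeq2, 4 with limma voom, 8 on the TPM scale, 3 with the term for the numbers, 0 with numbers 1 to 3 or 4 and 5 only, and 0 to 3 leaving out 1 library. Other inhibitory receptors had 11 on the TPM scale, 3 with numbers 1 to 3 and 1 with 4 and 5. Activating counterparts had 3 with numbers 1 to 3 and 0 with 4 and 5. With numbers 1 to 3 only, Fgr, Dok2, Cd99l2, St6galnac6, Siglecg, Siglecf, Milr1, Cd300ld, Ttyh2 and Nfam1 no longer passed. Within 100 kb, 5 locus neighbours were called. The cause was not tested, beyond the smaller number of samples in the subsets.

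With the replicate number as a block in edgeR 547 genes were called, and 1305 with it as a random effect in limma voom. Under the block, 3 of the 9 receptor genes were called (Cd72, Cd300a and Cd200r1), signal partners and ligands had 1 call each, the sialic acid list 0 and activating counterparts 3, and the sialic acid list had 4 with the random effect. Of 5 pairs of equal number 2 correlated above 0.1. The numbers are not read as pairs, which these correlations cannot exclude. Depth limits Cd300lf, Lilrb4a, Dok2, Pianp and Cd300ld3.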
